A study of Mus musculus with 6 samples.

Results

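The genes of the proteasome, its activators and its assembly factors were followed in the pancreas of Sirt1-deficient mice. Of 22180 genes read on the arrays, 49 had a symbol of the series Psma to Psmg followed by a number, each represented by its transcript cluster (the group of probes assigned to a gene) with the highest mean over the 6 arrays. For 47 of them the product is a subunit, an activator or an assembly factor; Psmc3ip, a meiotic recombination factor, and Psme3ip1 matched by name only and were left out of the counts. The 47 genes comprise 18 of the core particle, 20 of the regulatory particle (Psmc and Psmd symbols, a few of them its assembly chaperones), 4 activators and 5 assembly factors or inhibitors. Total RNA came from the whole pancreas of male mice of 6 months, 3 with the genotype Pdx1Cre;Sirt1ex4F/F (Sirt1-deficient) and 3 with Pdx1Cre (controls), and each pancreas was hybridized to 1 Affymetrix GeneChip Mouse Gene 2.0 ST array. Both genotypes carry the Cre transgene of the strain B6.FVB-Tg(Ipf1-cre)6Tuv/J, driven by the promoter of Pdx1. The Sirt1-deficient mice carry in addition the floxed Sirt1 allele of B6;129-Sirt1tm1Ygu/J on both chromosomes, from which Cre removes exon 4. Mice with the floxed alleles and no Cre are not part of the comparison. The study describes this Cre line as mosaic, above all in exocrine tissue, and whole pancreas also holds vessels, stroma and immune cells in which this promoter is not active.

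The proteasome is the barrel-shaped protease that degrades proteins tagged with ubiquitin. Its core particle is built of outer alpha rings, which gate the entrance, and inner beta rings, which hold the proteolytic sites; the regulatory particle binds the ubiquitin chain, unfolds the substrate with its ring of ATPases and feeds it into the core. In secretory tissue such as the exocrine pancreas it also degrades misfolded chains that are withdrawn from the endoplasmic reticulum.

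The array values are log2 expression values on a common scale after normalization. Correlations between the 6 arrays ran from 0.974 to 0.984 and array medians from 4.48 to 4.57. Sirt1 read 5.84, 5.78 and 5.80 in Pdx1Cre and 5.59, 5.69 and 5.83 in Pdx1Cre;Sirt1ex4F/F, and its single cluster does not isolate exon 4, so it does not check the genotype labels. For total pancreas of these genotypes, the study reports less Sirt1 transcript by quantitative PCR and a smaller Sirt1 protein on western blot. The summed level of 9 acinar cell markers, all above the olfactory limit defined below, was 16.00 to 16.02 in Pdx1Cre and 16.01 to 16.03 in Pdx1Cre;Sirt1ex4F/F. Markers of other cells were less even. The sum of 8 endothelial markers was 9.15 to 9.44 in Pdx1Cre and 9.50 to 9.56 in Pdx1Cre;Sirt1ex4F/F, without overlap. The single markers did not share a direction: 5 had a positive and 3 a negative fold change (median 0.21). In 3 of the 8 all Sirt1-deficient pancreata lay above all controls, against 5.23% of all genes. Of 7 markers of islet cells other than beta cells 6 had a negative fold change (median -0.40, sums of 11.52 to 12.03 and 11.43 to 11.79), as had 6 of 8 beta cell markers (median -0.13, sums of 9.88 to 10.35 and 9.92 to 10.12) and 8 of 8 fibroblast markers (median -0.17, sums of 11.17 to 11.49 and 10.97 to 11.38). At an unadjusted limma p under 0.01, which 1.63% of all genes passed, Ppy and Slc2a2 were lower and Emcn was higher. No other measured cell marker passed, and none of these genes passed after Benjamini-Hochberg adjustment. The part of cell composition in the values of the proteasome genes was not tested. On the first principal component of the genes outside the proteasome set (28.9% of the variance), the control pancreas 2 stood apart from the other controls, at -22.03 against 12.57 and 12.15. The Sirt1-deficient pancreas 3 likewise stood apart from its group, at 16.72 against -9.90 and -9.51. The counts over the 47 genes are therefore also given without either of them. The second component (24.7% of the variance) separated the genotypes. Its scores were -14.09, -15.32 and -9.52 in Pdx1Cre and 18.09, 8.17 and 12.68 in Pdx1Cre;Sirt1ex4F/F. The labels name no batch, and the exact permutation test of 3 against 3 pancreata cannot give a p below 0.1. Of the 47 genes, 42 had a mean above 4.66, the level under which 95% of 1105 olfactory receptor genes lay, taken as the level of genes not expected in this tissue (the olfactory limit); Psma5, Psma8, Psmb9, Psmb11 and Psmg4 did not.

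Promoter sequences are shown for the 6 genes whose values did not overlap between the genotypes, a choice made after their values were seen. Of the 47 genes, 39 have a promoter window in the RefSeq table of mouse assembly GRCm38.p6, which holds 250 bases before and 50 bases after the transcription start. Some have several annotated starts, which gives 42 windows, and a gene was counted for a motif if any of its windows held it. Each window was searched on both strands for motifs of factors known to act on proteasome or stress genes, and matches are in capitals. The windows lie at chr2:180042415-180042714 (minus strand) for Psma7, chr8:105938343-105938642 (minus) for Psmb10, chr3:95042565-95042864 (minus) for Psmd4, chr14:55578244-55578543 (plus) for Psme1, chr14:55591052-55591351 (minus) for Psme2 and chr2:151741261-151741560 (minus) for Psmf1.
Psma7: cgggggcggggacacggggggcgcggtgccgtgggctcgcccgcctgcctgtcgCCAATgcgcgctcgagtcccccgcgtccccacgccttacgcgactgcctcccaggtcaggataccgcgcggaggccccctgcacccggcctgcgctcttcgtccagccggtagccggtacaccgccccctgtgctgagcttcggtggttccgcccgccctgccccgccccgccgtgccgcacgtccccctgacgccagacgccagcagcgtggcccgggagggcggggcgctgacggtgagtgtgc
Psmb10: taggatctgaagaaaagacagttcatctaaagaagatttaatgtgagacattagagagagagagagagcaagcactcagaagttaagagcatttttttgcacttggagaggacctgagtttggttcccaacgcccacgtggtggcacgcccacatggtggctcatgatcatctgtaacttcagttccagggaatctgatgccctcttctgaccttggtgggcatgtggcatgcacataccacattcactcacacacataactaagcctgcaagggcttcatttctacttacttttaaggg
Psmd4: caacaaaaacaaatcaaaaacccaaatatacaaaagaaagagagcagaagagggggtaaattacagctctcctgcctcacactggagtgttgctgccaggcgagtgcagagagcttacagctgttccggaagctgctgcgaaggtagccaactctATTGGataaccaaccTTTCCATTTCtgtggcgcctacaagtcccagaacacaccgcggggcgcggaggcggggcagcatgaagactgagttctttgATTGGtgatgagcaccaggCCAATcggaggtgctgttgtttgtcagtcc
Psme1: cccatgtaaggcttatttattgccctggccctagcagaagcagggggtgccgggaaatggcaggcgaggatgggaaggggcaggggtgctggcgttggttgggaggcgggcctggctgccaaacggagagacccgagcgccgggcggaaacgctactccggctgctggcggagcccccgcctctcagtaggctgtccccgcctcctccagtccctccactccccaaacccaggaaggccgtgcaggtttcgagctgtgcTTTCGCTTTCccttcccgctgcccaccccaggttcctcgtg
Psme2: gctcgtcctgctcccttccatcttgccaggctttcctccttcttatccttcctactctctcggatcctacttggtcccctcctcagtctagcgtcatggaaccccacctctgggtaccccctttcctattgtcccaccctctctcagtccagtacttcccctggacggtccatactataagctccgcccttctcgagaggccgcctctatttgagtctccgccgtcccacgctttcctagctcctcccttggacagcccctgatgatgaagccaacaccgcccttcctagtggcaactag
Psmf1: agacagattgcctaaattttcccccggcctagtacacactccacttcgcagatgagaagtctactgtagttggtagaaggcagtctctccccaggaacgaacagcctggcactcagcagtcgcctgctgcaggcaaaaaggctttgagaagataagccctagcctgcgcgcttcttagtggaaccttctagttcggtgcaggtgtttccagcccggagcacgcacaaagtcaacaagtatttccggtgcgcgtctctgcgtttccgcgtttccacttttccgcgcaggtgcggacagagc
The capitals in Psma7 mark a CCAAT box (CCAAT, or ATTGG on the other strand), the site of the factor NF-Y. In Psmd4 they mark 3 CCAAT boxes and 1 interferon-stimulated response element core (GAAA repeated after a gap of 2 bases, or TTTC on the other strand), and in Psme1 1 such core. The windows of Psmb10, Psme2 and Psmf1 held none of the motifs searched. Nor did a further, overlapping window of Psme2 at chr14:55590972-55591271 (minus), which is not printed. Among the 39 genes, a CCAAT box was present in 14 (35.9%, against 41.1% of the 27025 genes in the table), 5 of them among the 6 alpha ring genes with a window. The interferon-stimulated core was present in 5 (12.8% against 3.99%), which were Psmb3, Psmd4, Psmd9, Psme1 and Psmg4. The core of the antioxidant response element (TGACNNNGC), bound by Nfe2l1 and Nfe2l2, was present in 6 (15.4% against 14%), the gamma-activated site (TTCNNNGAA) in 3 (7.69% against 9.55%) and the heat shock element (GAA, TTC and GAA, 2 bases apart) in 0 (against 0.662%). No match of one motif shared bases with a match of another. These shares are descriptions and were not tested.

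None of the 47 proteasome genes passed the study's threshold of an unadjusted limma p under 0.01 in either direction, where 1.63% of all genes did (0.888% lower, 0.739% higher), and none passed after Benjamini-Hochberg adjustment, where 0.0135% of all genes did. At an unadjusted p under 0.05, where 6.66% of all genes passed (3.76% lower, 2.89% higher), 2 of the 47 were lower, Psma7 and Psme2, and 0 were higher. Each of the 47 genes had a 95% interval within a 2-fold difference in either direction, as had 98.9% of all genes, and 40 (85.1%, against 75.4% of all genes) within 0.5 on the log2 scale. The outermost bounds were -0.63 for Psma8, a 1.55-fold decrease, and 0.45 for Psmb11, a 1.36-fold increase, both of them genes below the olfactory limit.

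Most of the 47 genes read slightly lower in the Sirt1-deficient pancreata. The log2 fold change (Pdx1Cre;Sirt1ex4F/F minus Pdx1Cre) was negative for 36 of the 47 genes (76.6%), against 54.9% of all genes, and positive for 11. The median was -0.11, against -0.017 over all genes, and single genes ran from -0.26 (Psmd7) to 0.18 (Psmf1). The size of these differences was of the order of the spread between pancreata: the median difference was 0.11 and the median SD within a group 0.14, and the difference exceeded the gene's own SD within groups in 21 of the 47 genes (44.7%, against 31.4% of all genes). In 6 genes (12.8%) the groups did not overlap, Psma7, Psmb10, Psmd4, Psme1 and Psme2 with all Sirt1-deficient pancreata below and Psmf1 with all above. Over all genes this was the case for 11.7%, 6.51% below and 5.23% above. In RNA of a whole organ, fewer cells of a type and less RNA per cell cannot be told apart. Without the control pancreas 2 the median was -0.13, 41 genes were negative and 8 were lower at an unadjusted p under 0.05 (17.0%, against 5.16% of all genes in the same fit), namely Psma7, Psmb1, Psmc6, Psmd1, Psmd2, Psmd7, Psme2 and Psmg2, while 0 passed at 0.01. Without the Sirt1-deficient pancreas 3 the median was -0.13 and 35 genes were negative. In that fit 2 were lower at 0.05, Psmd2 and Psmd4 (4.26%, against 3.95% of all genes). Without the Sirt1-deficient pancreas 1 or 2, 0 were lower at 0.05 (against 2.66% and 3.28% of all genes), and the median was -0.075 and -0.049.

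**Figure D1:**
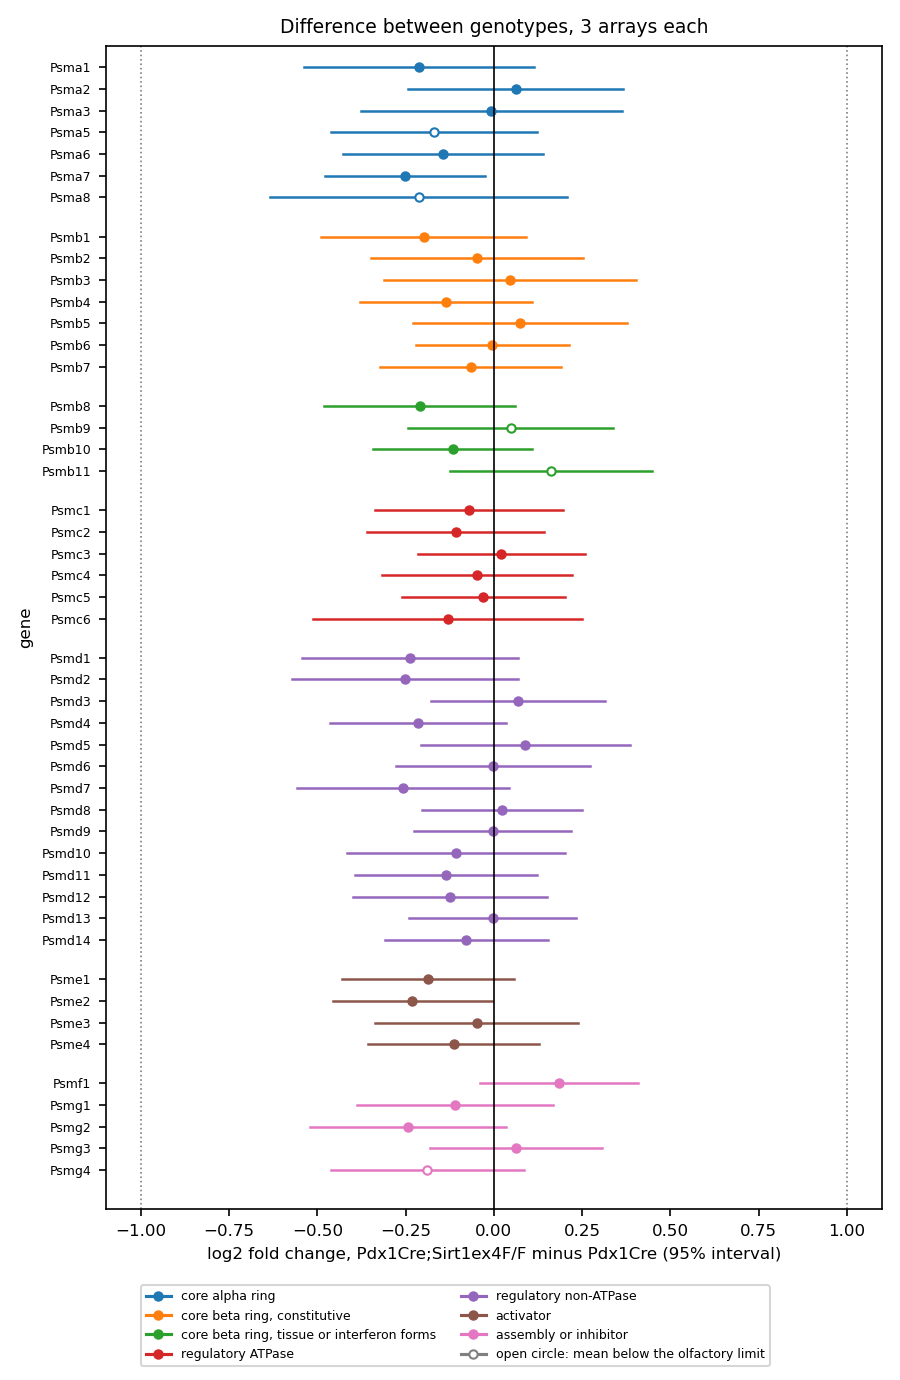
Each point is the log2 fold change of a gene (x axis, Pdx1Cre;Sirt1ex4F/F minus Pdx1Cre, 3 arrays each) with its 95% interval from limma as a bar, genes on the y axis coloured by class; open circles are genes whose mean lies below the limit set by olfactory receptor genes, and dotted lines mark a 2-fold difference. All 47 intervals lie between the dotted lines, and 36 of the 47 points lie left of 0.

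The outer rings of the core are made of alpha subunits, and 7 of their genes were read. Of these, 6 had a negative and 1 a positive fold change, with a median of -0.17 (-0.084 without the control pancreas 3 to -0.24 without the Sirt1-deficient pancreas 3). Without the genes below the olfactory limit the median was -0.14. Psma7, an alpha ring subunit, read 7.44, 7.35 and 7.29 in Pdx1Cre and 7.09, 7.14 and 7.10 in Pdx1Cre;Sirt1ex4F/F. Every Sirt1-deficient pancreas lay below every control, and the replicates of each group were close together. Its log2 fold change of -0.25 (standard error, SE, 0.10) had the smallest p of the 47 genes (limma p = 0.034, adjusted p = 0.709, 2-sided exact permutation p = 0.1). Psma8, the germ cell paralog of Psma7, had control values of 3.59, 4.27 and 4.33 and Sirt1-deficient values of 3.72, 3.93 and 3.89, all below the olfactory limit. Without the control pancreas 1, its lowest array, Psma8 passed at 0.01 in limma, the only proteasome gene to do so in any fit that left out an array. At the other end of the class, Psma2 read 6.96, 6.53 and 6.84 against 6.72, 6.84 and 6.95, with overlapping groups and a log2 fold change of 0.062 (SE 0.14). Psma1, Psma3, Psma5 and Psma6 had log2 fold changes between those of Psma7 and Psma2, with overlapping groups. Psma5 lay below the olfactory limit with both of its clusters although it belongs to every alpha ring, so its low value was not read as absence. The log2 fold changes of its clusters had opposite signs, -0.17 for the cluster used and 0.11 for the other. Psma4 was read only by clusters shared with another gene and is not counted.

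Of the 7 constitutive beta ring genes, 5 had a negative fold change and none had groups that did not overlap, with a median of -0.048. That median was -0.13 when Pdx1Cre 2 was left out and -0.0044 when Sirt1-deficient 2 was. The proteolytic sites of the constitutive core lie on the products of Psmb5, Psmb6 and Psmb7. Psmb5, the chymotrypsin-like subunit and target of the drug bortezomib, read 10.12, 9.78 and 10.16 in Pdx1Cre and 10.09, 9.96 and 10.24 in Pdx1Cre;Sirt1ex4F/F. The lowest value was that of the control pancreas 2, and the log2 fold change of 0.075 (SE 0.13) became -0.043 without it. Psmb6, the caspase-like subunit, was the most even of the 3, at 6.62, 6.61 and 6.65 against 6.63, 6.62 and 6.62, a log2 fold change of -0.0051 (SE 0.096, 95% interval -0.22 to 0.21). Psmb7, the trypsin-like subunit, read 7.65, 7.49 and 7.70 against 7.44, 7.52 and 7.68, with overlapping groups and a log2 fold change of -0.066 (SE 0.11). In none of the 3 did the genotypes differ beyond the spread (limma p = 0.591, 0.959 and 0.577, exact permutation p = 0.7, 0.8 and 0.6). The lowest fold change of the class was that of Psmb1, a subunit without a proteolytic site, at 7.94, 7.64 and 7.92 against 7.45, 7.74 and 7.71 (log2 fold change -0.20, SE 0.13).

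Inducible beta subunits replace the catalytic ones after interferon, Psmb8 for Psmb5, Psmb9 for Psmb6 and Psmb10 for Psmb7, and form the immunoproteasome, and Psmb11 forms the core of thymic epithelium. These 4 genes did not share a direction: Psmb8 and Psmb10 were negative and Psmb9 and Psmb11 positive, with a median of -0.035 that ran from -0.10 without the control pancreas 1 to 0.017 without the control pancreas 2. Psmb8 read 5.03, 5.31 and 5.16 in Pdx1Cre and 4.90, 5.11 and 4.86 in Pdx1Cre;Sirt1ex4F/F. The lowest control lay below the highest Sirt1-deficient value, and the log2 fold change was -0.21 (SE 0.12, limma p = 0.114, exact permutation p = 0.2). Psmb10 read 8.42, 8.54 and 8.54 against 8.40, 8.37 and 8.38, where the lowest control and the highest Sirt1-deficient array nearly met, a log2 fold change of -0.12 (SE 0.10, limma p = 0.271, exact permutation p = 0.1). Psmb9 stayed below the olfactory limit on every array, at 3.96, 4.32 and 4.18 against 4.07, 4.34 and 4.19 (log2 fold change 0.047, SE 0.13). Psmb11 lay below it too, at 4.58, 4.50 and 4.18 against 4.60, 4.63 and 4.51, with a log2 fold change of 0.16 (SE 0.13). Leukocytes hold immunoproteasome without induction. The summed macrophage markers overlapped between the groups, at 9.21 to 9.45 in Pdx1Cre and 8.94 to 9.52 in Pdx1Cre;Sirt1ex4F/F. Of the 8 single markers, 7 had a negative fold change (median -0.16). In 3 of the 8 all Sirt1-deficient pancreata lay below all controls, against 6.51% of all genes. At an unadjusted limma p under 0.05, 1 of the 8 was lower, against 3.76% of all genes. None of the 6 T cell markers measured exceeded the olfactory limit. The part of macrophage content in the values of Psmb8 and Psmb10 was not tested. At 0.01, where 1.63% of all genes passed, 0 of 12 measured genes of antigen processing and interferon signaling did, with a median of -0.016. So short a list at that share does not show whether the pathway differed. Tap1, the peptide transporter gene that lies between Psmb8 and Psmb9 on chromosome 17, had a log2 fold change of -0.010 (SE 0.11).

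**Figure D2:**
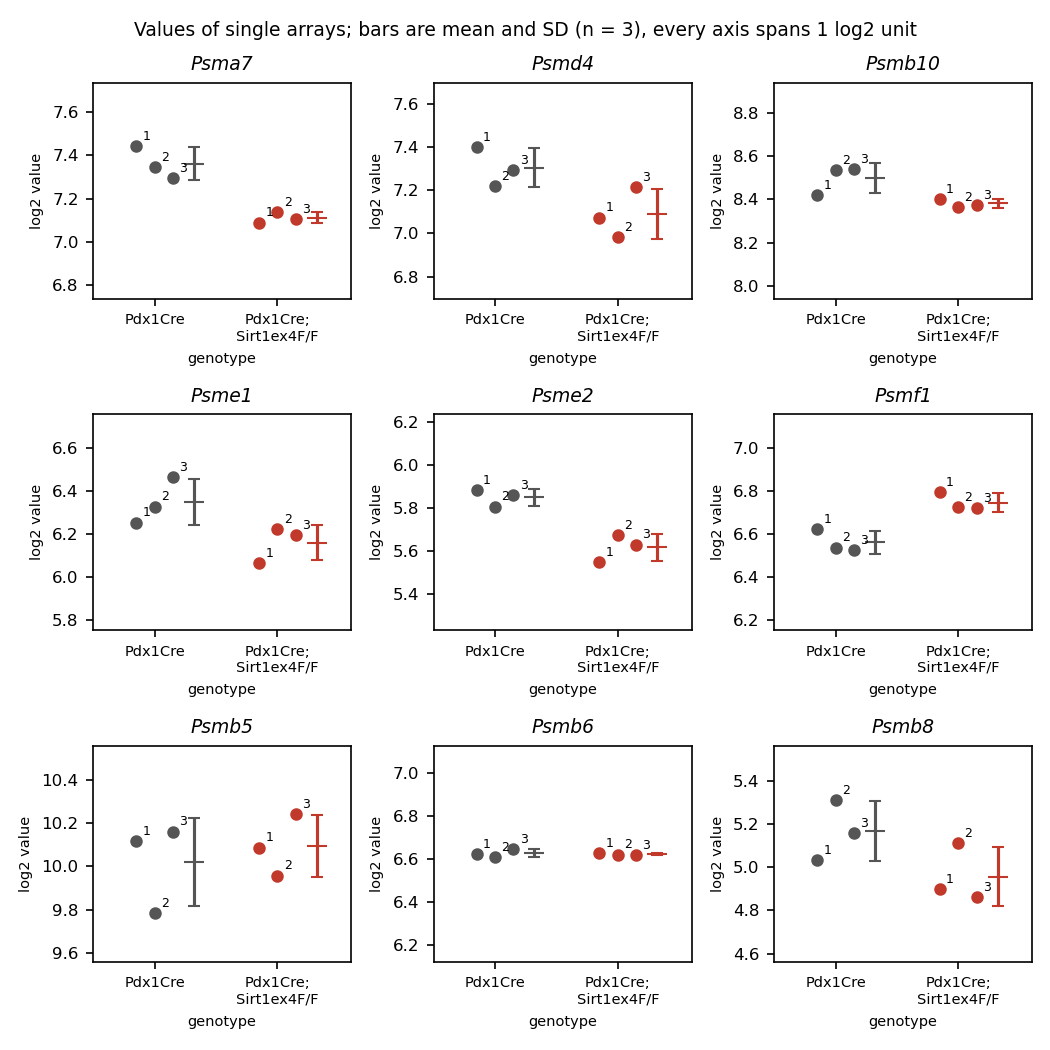
Points are the log2 values of single arrays (y axis, each panel spanning 1 log2 unit) for Pdx1Cre (grey) and Pdx1Cre;Sirt1ex4F/F (red), numbered by pancreas, with mean and SD as bars (n = 3). In the upper 6 panels the groups do not overlap, with Psmf1 the only one higher in the Sirt1-deficient pancreata; in the lower panels Psmb5, Psmb6 and Psmb8 overlap.

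The regulatory particle contains a ring of ATPases, Psmc1 to Psmc6, that unfolds the substrate. Of these 6 genes 5 were negative, the median was -0.059 (-0.019 without the control pancreas 1 to -0.11 without the Sirt1-deficient pancreas 3), and the groups overlapped in each. Psmc6 had the lowest fold change and read 8.13, 7.50 and 8.02 in Pdx1Cre and 7.81, 7.57 and 7.87 in Pdx1Cre;Sirt1ex4F/F, so that the control pancreas 2 was the lowest of all 6 arrays (log2 fold change -0.13, SE 0.17). Psmc3 had the highest, at 6.50, 6.40 and 6.50 against 6.58, 6.50 and 6.38 (log2 fold change 0.021, SE 0.11). The other 4 lay between them.

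Among the 14 genes named Psmd, the non-ATPase subunits and a few chaperones of the regulatory particle, 11 were negative with a median of -0.093, and the 20 Psmc and Psmd genes together (16 negative) had a median of -0.074. With single arrays left out, the median of the 14 ran from -0.15 (without the control pancreas 2) to -0.035 (without the Sirt1-deficient pancreas 2). Psmd7, partner of the deubiquitinase Psmd14 in the lid, had the lowest fold change of all 47 genes. It read 8.38, 7.99 and 8.21 in Pdx1Cre and 8.06, 7.98 and 7.77 in Pdx1Cre;Sirt1ex4F/F. The control pancreas 2 lay among the Sirt1-deficient values, and the log2 fold change of -0.26 (SE 0.13) did not pass (limma p = 0.084, exact permutation p = 0.2). Psmd4, a receptor for ubiquitin chains, read 7.40, 7.22 and 7.29 against 7.07, 6.98 and 7.21. Its groups did not overlap, though the highest Sirt1-deficient and the lowest control array nearly met (log2 fold change -0.22, SE 0.11, limma p = 0.083, exact permutation p = 0.1). The scaffold subunits Psmd1 and Psmd2 had log2 fold changes of -0.24 and -0.25 with overlapping groups. The highest fold change of the class was that of Psmd5, a chaperone of the assembly of the ATPase ring, at 7.41, 6.99 and 7.28 against 7.38, 7.20 and 7.37 (log2 fold change 0.089, SE 0.13). For Psmd6, Psmd9, Psmd13 and Psmd8 it lay between -0.0038 and 0.023. Psmd3, Psmd10, Psmd11, Psmd12 and Psmd14 ranged from -0.14 to 0.068.

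Activators bind the end of the core in place of the regulatory particle, and all 4 of their genes were negative, with a median of -0.15 (-0.11 to -0.19 with single arrays left out). Psme1 and Psme2 encode the partners of the interferon-inducible activator ring and are neighbours on chromosome 14, with Emc9 between them in RefSeq. Psme2 read 5.88, 5.81 and 5.86 in Pdx1Cre and 5.55, 5.67 and 5.63 in Pdx1Cre;Sirt1ex4F/F. The groups were apart on every array, with a log2 fold change of -0.23 (SE 0.10, limma p = 0.045, adjusted p = 0.734, exact permutation p = 0.1). A further cluster that the annotation assigns jointly to Psme2 and 2 other genes read 5.85, 5.92 and 5.82 against 5.62, 6.11 and 5.97 and did not separate the groups. Psme1 read 6.25, 6.33 and 6.46 against 6.07, 6.22 and 6.19. Its groups were separate by a narrow margin, with a log2 fold change of -0.19 (SE 0.11, limma p = 0.118, exact permutation p = 0.1). Psme4, the large nuclear activator, had a log2 fold change of -0.11 and Psme3, the nuclear homolog of the interferon-inducible pair, one of -0.049 (SE 0.13), at 7.82, 7.50 and 7.82 against 7.61, 7.57 and 7.81.

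Psmf1, which binds the core and inhibits it in vitro, was the only gene of the 47 with every Sirt1-deficient pancreas above every control. It read 6.62, 6.54 and 6.53 in Pdx1Cre and 6.80, 6.72 and 6.72 in Pdx1Cre;Sirt1ex4F/F, a log2 fold change of 0.18 (SE 0.10) that did not pass (limma p = 0.096, exact permutation p = 0.1). The chaperone pair Psmg1 and Psmg2 assembles the alpha ring. Psmg2 read 6.46, 6.10 and 6.40 against 6.13, 6.00 and 6.10, with the control pancreas 2 among the Sirt1-deficient values (log2 fold change -0.24, SE 0.12, limma p = 0.079, exact permutation p = 0.3). Psmg1 had a log2 fold change of -0.11. The second chaperone pair gave 0.062 for Psmg3 and -0.19 for Psmg4, which lay below the olfactory limit. The median of the 5 genes was -0.11, but -0.040 when Pdx1Cre 1 was left out, -0.067 when Pdx1Cre 3 was and -0.056 with the chaperones Psmd5, Psmd9 and Psmd10 counted among them.

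The proteasome genes differed between pancreata of 1 genotype by as much as between the genotypes. With each gene centred on its mean over the 6 arrays, the mean over the 47 genes was 0.083, -0.040 and 0.081 in Pdx1Cre and -0.065, -0.079 and 0.021 in Pdx1Cre;Sirt1ex4F/F. The control pancreas 2 thus lay with the Sirt1-deficient pancreata 1 and 2, and the Sirt1-deficient pancreas 3 between them and the other controls. The control pancreas 2 was the lowest control for 33 of the 47 genes (70.2%, against 41.2% of all genes and 52.2% of genes above the olfactory limit), including 13 of the 14 Psmd genes but 0 of the 4 tissue and interferon forms. The Sirt1-deficient pancreas 3 was the highest of its group for 24 (51.1%, against 40.7% of all genes and 50% of genes above the limit). The control pancreas 1 held the highest value of all 6 arrays for 20 genes. The Sirt1-deficient pancreas 2 held the lowest for 14, the control pancreas 2 for 11 and the Sirt1-deficient pancreas 1 for 10. Genes above the olfactory limit, as a whole, showed the same order of the controls at a smaller size, with array means of 0.027, -0.034 and 0.021 in Pdx1Cre and -0.034, -0.015 and 0.036 in Pdx1Cre;Sirt1ex4F/F. The first principal component, computed without the proteasome genes, gave negative scores to Pdx1Cre 2 (-22.03) and to Sirt1-deficient 1 and 2 (-9.90 and -9.51) and positive scores to the other 3. The second component, nearly as large (24.7% against 28.9% of the variance), gave negative scores to all controls and positive scores to all Sirt1-deficient pancreata. The part of either component in the values of the proteasome genes was not tested.

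**Figure D3:**
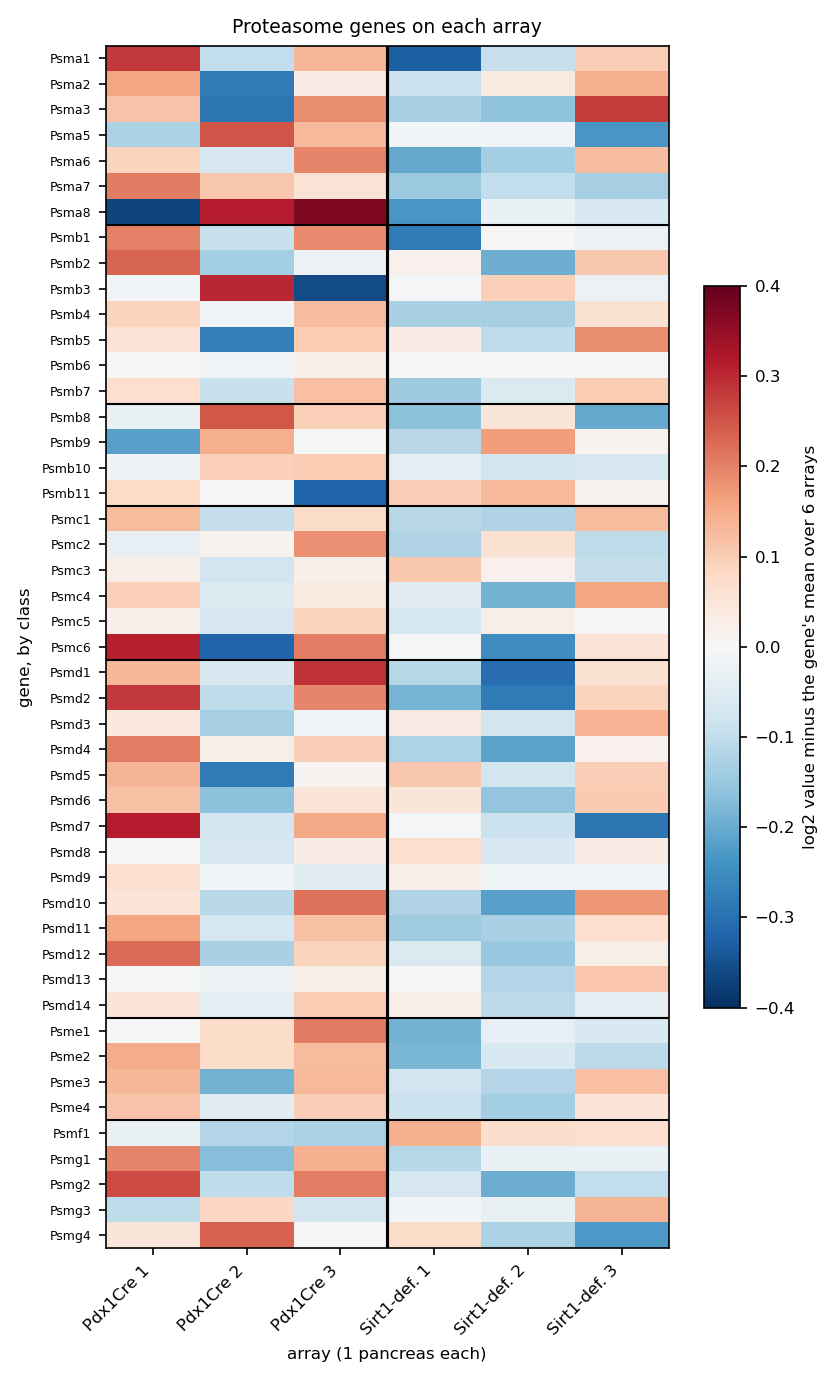
Rows are the 47 genes, grouped by class with horizontal lines, columns are the 6 arrays, and colour gives the log2 value minus the gene's mean over the arrays (red above, blue below). Blue prevails in the control pancreas 2, which was the lowest control for 33 of the 47 genes, and Psma7, Psme2 and Psmf1 are among the few rows whose colour changes at the vertical line between the genotypes.

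**Figure D4:**
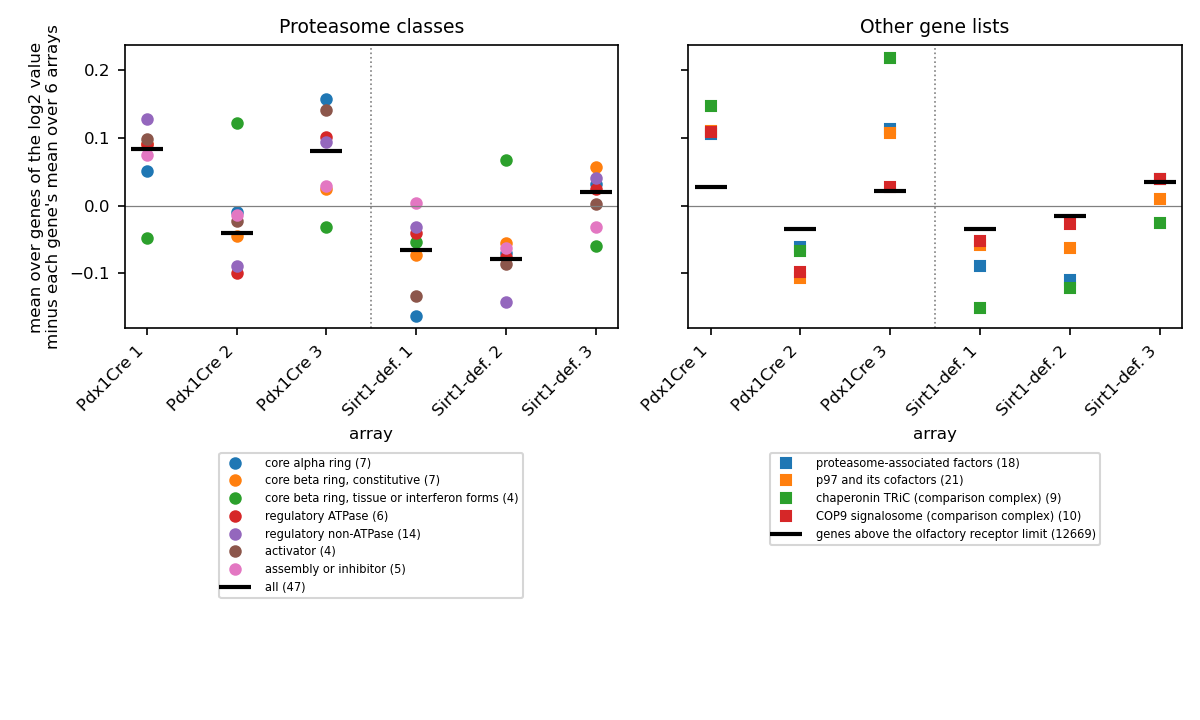
Points give, for each array (x axis), the mean over the genes of a class or list of the log2 value minus each gene's mean over the 6 arrays (y axis); numbers of genes are in brackets and black bars are all 47 proteasome genes (left) or all genes above the olfactory limit (right). The bar of the proteasome genes lies below 0 in the control pancreas 2 (-0.040), as it does in the Sirt1-deficient pancreata 1 and 2, and the tissue and interferon forms depart from the other classes there, at 0.12.

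Of the genes that work with the proteasome, those that passed at 0.01, where 1.63% of all genes did (0.888% lower), were all lower. Of 18 measured proteasome-associated factors, 1 passed at 0.01, 0 were higher and the median was -0.072. That gene, Sem1, encodes a small subunit of the lid of the regulatory particle that does not bear a Psm symbol. It read 7.72, 7.86 and 7.61 in Pdx1Cre and 7.33, 7.29 and 7.40 in Pdx1Cre;Sirt1ex4F/F. Each Sirt1-deficient value lay below each control (log2 fold change -0.39, SE 0.11, limma p = 0.0057, adjusted p = 0.566, exact permutation p = 0.1). Of the ubiquitin genes and activating enzymes only Uba6, an enzyme that activates ubiquitin, could be read alone, and it passed, at 6.79, 6.68 and 6.83 against 6.29, 6.16 and 6.49 (log2 fold change -0.45, SE 0.12, limma p = 0.0039, adjusted p = 0.489, exact permutation p = 0.1). None of the 30 measured ubiquitin-conjugating enzymes passed (median -0.027). Of 21 genes of Vcp (p97), the ATPase that pulls ubiquitinated proteins out of membranes and complexes, and its cofactors, 2 passed, the membrane cofactors Ubxn4 and Derl2 (log2 fold changes -0.42 and -0.33), and the median was -0.054. For Ubxn4 the limma p was 0.0061 (adjusted p = 0.566) and for Derl2 0.0097 (adjusted p = 0.609), with an exact permutation p of 0.1 for each.

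Regulators of proteasome gene transcription did not pass. Of 16 measured genes of this kind 0 were called at 0.01, where 1.63% of all genes were, with a median of -0.058. Nfe2l1, which raises the transcription of proteasome genes when the protease is inhibited, read 8.45, 8.38 and 8.59 in Pdx1Cre and 8.40, 8.36 and 8.56 in Pdx1Cre;Sirt1ex4F/F, with overlapping groups (log2 fold change -0.033, SE 0.11). Nfe2l2 had a log2 fold change of -0.057 (SE 0.11). Other large complexes of the cytosol were set beside the proteasome: of 9 genes of the chaperonin TRiC 1 passed, Cct3 (log2 fold change -0.45, SE 0.11), and all 9 were negative with a median of -0.15, whereas the 10 genes of the COP9 signalosome, a complex related to the proteasome lid, divided into 5 negative and 5 positive with a median of -0.0086. For Cct3 the limma p was 0.0030, the adjusted p 0.443 and the exact permutation p 0.1. These lists were not tested against the proteasome genes.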

How the data were processed

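Each of the 6 arrays holds the total RNA of 1 pancreas, and the genotype of each was taken from its sample label. The authors deposited log2 values, produced by Robust Multi-array Average in the oligo package: background correction, quantile normalization and a summary of the probes of each cluster. Its version is not given in the sources used here. Summarizing over probes can compress small differences and does not resolve exons or isoforms. Of 41345 clusters, 23521 had 1 gene symbol in the platform annotation, 1820 several and 16004 none; only the first were used, 1 per gene (highest mean over the arrays), which gave 22180 genes. RefSeq genes of GRCm38.p6 matched 23328 clusters and changed 0 symbols. The comparison used limma 3.58.1 in R 4.3.3 (lmFit and eBayes, no covariates), fitted over all genes, with the study's threshold of p under 0.01 unadjusted. The members and gene lists were chosen with earlier results of these data known. Named with values were Sirt1, members with p under 0.05, the catalytic subunits and their interferon forms, the lowest and highest member of each class and, per pathway list, up to 4 genes with p under 0.01; other genes named were chosen after their values were seen. A 95% interval is from the same fit. The number of arrays limits the precision. Whether the 3 pancreata of a group came from separate litters is not stated, so p-values measure the spread between these animals. The limma fit was tested on simulated arrays with known differences, drawn independently for each gene. The other steps were not part of that test. The fit was repeated after centring each array on its median, after quantile normalization applied again, without dim genes, with weighted arrays, with a trended and robust variance prior, with the replicate block, without each array in turn, with the mean of the clusters of a gene and with every cluster of the table.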

Additional observations from a re-analysis of the deposited data

How the results depend on the processing

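The count of genes called, 361, was 574 with all transcript clusters in the fit, 1477 at an unadjusted p under 0.05, 3 after adjustment and between 248 and 472 with single arrays left out. The count of proteasome genes called, 0, was 2 at an unadjusted p under 0.05 and between 0 and 1 with single arrays left out; the 1 was Psma8 without the control pancreas 1. The median of the proteasome genes kept its sign in every alternative (-0.13 to -0.049 with single arrays left out, -0.13 to -0.070 otherwise), and between 31 and 41 of them were negative. Centring moved the median of all genes from -0.017 to -0.0023, and 31 of the 47 were then negative against 50.6% of all genes. Proteasome genes lower at an unadjusted p under 0.05, 2 as reported, numbered 0 after centring (2.98% of all genes in that fit), 6 with array weights (12.8%, against 5.68% of all genes), 1 with all clusters (2.13%, against 3.11%) and between 0 and 8 with single arrays left out (2.66% to 5.16% of all genes). Psmb5 turned to -0.0094 with array weights (-0.043 to 0.15 with single arrays left out), Psmb6 to 0.010 after centring and 0.0030 after a second quantile normalization (-0.013 to 0.0045), and Psmb9 ranged from -0.050 to 0.13. With dim genes removed, the median of the alpha ring was -0.14, that of the tissue and interferon forms -0.16 and that of the assembly genes -0.024, fewer genes being counted. The cause of the other changes was not tested. Deviations from the group means had correlations of -0.107, 0.164 and 0.163 between same-numbered pancreata of the 2 groups. Between differently numbered pancreata they ran from -0.255 to 0.133. These values do not settle whether the numbers mark pairs, and the main fit did not take them as pairs. The replicate block gave 373 genes called, 0 proteasome genes at 0.01 and 1 lower at 0.05, Psma7 (against 4.16% of all genes), with an unchanged median of -0.11. Dim genes, such as Psma5, Psma8, Psmb9, Psmb11 and Psmg4, carry little signal over background, which limits what their values show.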
